A study of Mus musculus with 4 samples.

Results

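The heat shock proteins and chaperones described here are the genes of the Hspa (Hsp70), Hsph1 (Hsp110), Hspb (small heat shock protein), Hsp90, Hspd1 and Hspe1 (mitochondrial chaperonin), Cct (cytosolic chaperonin) and Dnaja, Dnajb and Dnajc (J protein) families. They were chosen by gene symbol alone, among probe sets that the platform annotation pairs with 1 gene. This gave 197 of 45265 probe sets and 80 genes, with 142 probe sets of 68 genes on the MOE430A array design and 55 probe sets of 30 genes on MOE430B. Hspbp1 and Hspbap1 came in by their first letters and are proteins that bind an Hsp70 or a small heat shock protein, so they are given apart.

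RNA was from the lungs of embryos at E18.5, the last day or so before birth. The double knockout embryos carried null alleles of both Myf5 and Myod1 (labelled Myf5-/-:MyoD-/-, on BALB/c), and the controls were wild type BALB/c embryos. Myf5 and Myod1 are the transcription factors that commit cells to skeletal muscle, so that the double null embryo lacks skeletal muscle and does not make breathing movements. Biotinylated cRNA was made from 6 µg of RNA, and 4 Affymetrix arrays were used, 1 per genotype on each of the 2 designs. With no replicate array there is no test, SD or p-value for any gene. Every value below describes these 4 arrays only, and the labels state neither the sex of the embryos nor whether the RNA came from 1 embryo or several.

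Chaperones keep other proteins from clumping and help them to fold. Hsp70 proteins bind and release stretches of unfolded chain with energy from ATP, J proteins bring clients to Hsp70 and trigger that step, Hsp110 proteins reload it with ATP, and Hsp90 finishes the folding of kinases and hormone receptors. The ring-shaped chaperonins, CCT in the cytosol and Hspd1 with Hspe1 in mitochondria, enclose whole proteins, with actin and tubulin the best known clients of CCT. Small heat shock proteins hold unfolded protein without ATP and are abundant in muscle. Inducible members answer heat and other protein damage through heat shock factor 1, while those of the endoplasmic reticulum answer the unfolded protein response.

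Both targeted genes were read first. Myf5 gave a signal of 8.94 in the array labelled double knockout and 111 in the array labelled wild type, both under the floor of 284.5 below which signals were not told apart. Myod1 read 1081 in the array labelled double knockout and 85.0 in the array labelled wild type on MOE430A, at least 3.80-fold higher and against the labels. That probe set reached the signal filter on 1 array only. On MOE430B Myod1 read 607 against 337, both under the filter, by a probe set of a kind that may bind related transcripts. Whether these probe sets fall inside the deleted sequence is not known from the labels, so groups are named as labelled and every direction rests on the labels. Among skeletal muscle genes on MOE430A, 6 of the 9 that passed the signal filter were lower. Myh2 read 267 in the array labelled double knockout and 890 in the array labelled wild type (at least 3.13-fold lower). Mylpf read 221 against 917 (at least 3.22-fold lower) and Myl1 834 against 1748 (2.10-fold lower). Myh2 and Mylpf reached the signal filter on 1 array only and so had to differ between the genotypes, while Myl1 reached it on both. Ckm, Tnni1 and Tnnt1 were higher, with log2 ratios of 0.27, 0.27 and 0.20. On MOE430B 4 of 6 passing skeletal muscle genes were higher. Among them Mybpc2 (1054 against 281), Myh4 and Ryr1 reached the filter on 1 array only. Array controls for 18S ribosomal RNA, 3 per design, had median ratios of 3.91 (MOE430A) and 3.13 (MOE430B) for labelled double knockout over labelled wild type. Lung markers were present, since all 16 listed genes of lung epithelium and mesenchyme passed the signal filter on MOE430A, and cardiac muscle genes were also measured there (23 of 24 passed). Across the 100 probe sets that both designs carry, which read a median 3.96-fold brighter on MOE430B, 1 log2 ratio had an SD of 0.245 and the mean difference between designs (MOE430B minus MOE430A) was -0.22. Passing probe sets of the same chaperone gene had a within-gene SD of 0.29 on MOE430A (31 genes; 0.37 over all genes) and 0.83 on MOE430B (7 genes; 0.71 over all genes). None of the 100 shared probe sets belongs to a gene of the families chosen here.

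A probe set was taken as measured when its brighter signal was at least the design's median signal (789.2 for MOE430A, 858.2 for MOE430B). By this filter 102 of 142 chaperone probe sets passed on MOE430A and 36 of 55 on MOE430B, together 68 of 80 genes. Probe sets of named genes that are not given below did not pass. Of those that did, 12 and 8 passed on 1 array only and so had to differ between the genotypes. Genes with no passing probe set were the heat-inducible Hspa1a and Hspa1b, the testis Hsp70 Hspa1l, Hspa12b, Hspb9, Cct6b, Dnajb3, Dnajb7, Dnajc5b, Dnajc22, Dnajc24 and Dnajc27.

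**Figure D1:**
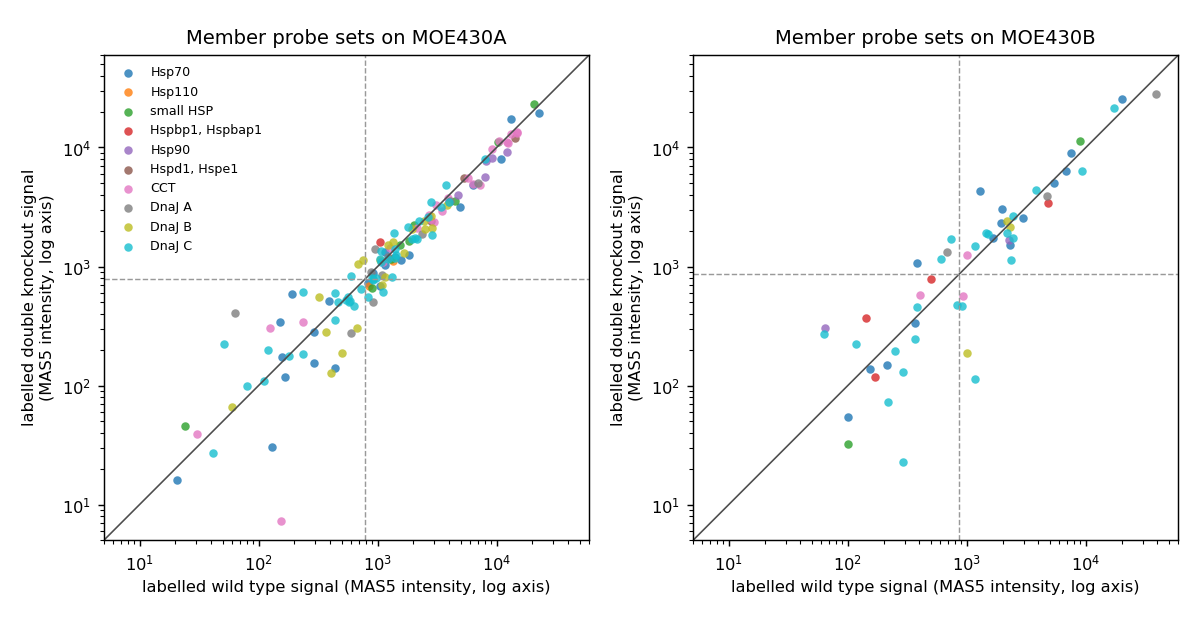
Signal of each chaperone probe set in the array labelled double knockout (vertical) against the array labelled wild type (horizontal), both on log axes, for MOE430A (left) and MOE430B (right). Colours are families, the solid line is equality and the dashed lines are the filter of 789.2 on MOE430A and 858.2 on MOE430B. Points on MOE430A lie closer to the line than those on MOE430B.

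On MOE430A most chaperone probe sets read slightly lower in labelled double knockout lung. The log2 ratio of labelled double knockout over labelled wild type was below 0 for 72 of the 102 passing probe sets (70.6%), against 50.0% of all 12203 passing probe sets of that design. Their median was -0.17, with quartiles of -0.32 and 0.04, while all passing probe sets had a median of 0.00 and quartiles of -0.24 and 0.23. The shift was small for each probe set. Only 8 were at least 1.5-fold lower (7.84%, where 7.28% of all passing probe sets were) and 3 at least 1.5-fold higher (2.94%, against 6.41%), and 5 of the 8 and 2 of the 3 passed on 1 array only. None was 2-fold lower or 2-fold higher, where 2.03% and 1.81% of all were. The share of members past 1.5-fold downward was therefore near that of the array as a whole, and what differed was the number on each side of 0.

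The tilt was also seen when each gene was read by 1 probe set, the brightest that passed. On MOE430A 38 of 55 genes (69.1%) were then below 0, against 48.7% of all 7658 genes, with a median of -0.13. At 1.5-fold, 4 of these genes were lower and 3 higher, where 6.29% and 6.23% of all genes were. Among probe sets in the upper quartile of signal, 43 of 58 were below 0 (74.1%, against 48.3%). Of the 31 chaperone genes with at least 2 passing probe sets on this design, 15 had all of them below 0 (48.4%, where 26.8% of all such genes did) and 2 had all above 0 (6.45%, against 21.9%), namely Dnaja3 and Hspb1. These are the probe sets already counted above, so this count follows in part from their tilt and is not a separate reading.

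MOE430B did not show the same tilt. There 17 of 36 passing probe sets were below 0 (47.2%, against 50.0% of 12891), with a median of 0.09 and a wide SD of 0.79, close to the 0.82 of all. Past 1.5-fold, 6 were higher (16.7%, against 18.7%) and 6 lower (16.7%, against 15.4%), and past 2-fold 3 were higher (8.33%, against 9.74%) and 3 lower (8.33%, against 7.97%). These shares are near those of the design as a whole, and 8 of the 12 passed on 1 array only. By the brightest probe set, 12 of 25 genes were below 0, where 54.0% of all genes of this design were, and among probe sets in the upper quartile of signal 13 of 23 were (56.5%, against 54.2%). Of 12 chaperone genes measured on both designs, 7 had the same sign by their brightest probe sets (58.3%) and 5 the opposite, where 54.5% of all 1829 such genes agreed in sign. Those with opposite signs were Cct4, Dnajb4, Hspa4l, Hspa5 and Hspa9.

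**Figure D2:**
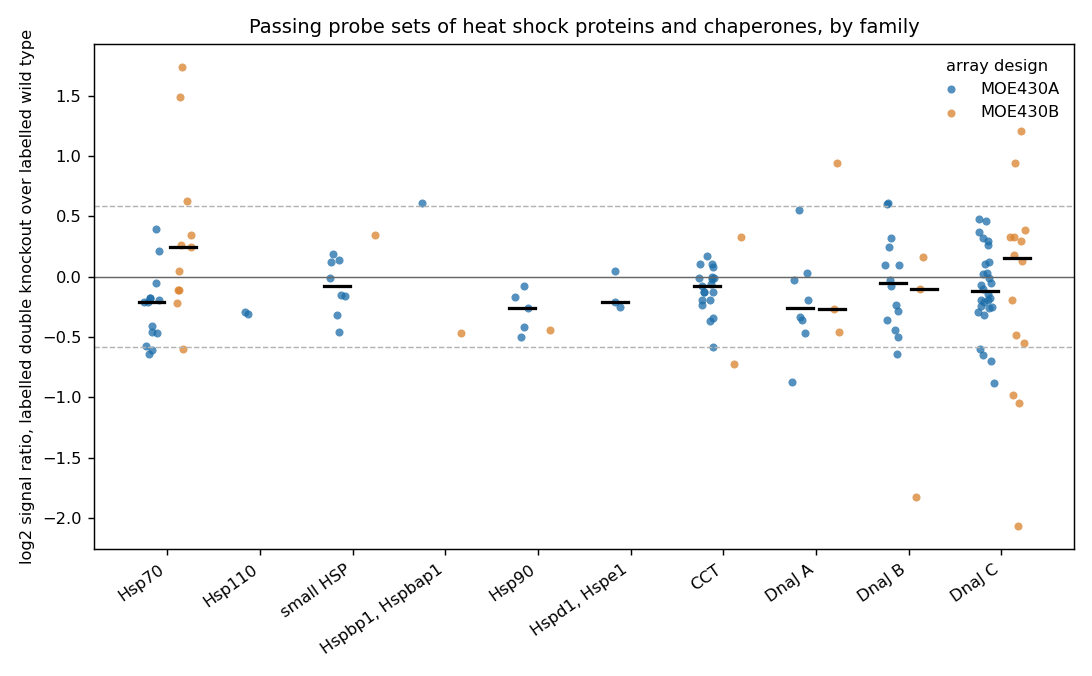
Log2 signal ratio of labelled double knockout over labelled wild type (vertical) for each passing probe set, by family (horizontal) and array design (colour). Black bars are medians where a family has 3 or more passing probe sets on a design, and dashed lines mark 1.5-fold; on MOE430A the medians of Hsp70 (-0.21), Hsp90 (-0.26) and DnaJ A (-0.26) lie below 0, and Hsp70 on MOE430B lies at 0.25.

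Every passing probe set of Hsp90aa1, Hsp90b1 and Hsph1 read lower. The other cytosolic Hsp90 gene, Hsp90ab1, had no probe set paired with it alone and was not measured here. Hsp90aa1, the stress-responsive cytosolic Hsp90, had signals of 5625, 8167 and 9122 in labelled double knockout lung, against 7953, 9181 and 12223 in labelled wild type lung, for its 3 probe sets on MOE430A. Its passing probe set on MOE430B read 1658 against 2253. All 4 were lower, with log2 ratios of -0.50, -0.17, -0.42 and -0.44. Hsp90b1, the Hsp90 of the endoplasmic reticulum known as GRP94, read 3961 and 7752 in labelled double knockout lung, against 4757 and 8170 in labelled wild type lung. Its ratios of -0.26 and -0.08 were smaller than those of most Hsp90aa1 probe sets, and the family median on MOE430A was -0.26 over 5 probe sets.

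Hsph1, the inducible Hsp110 that reloads Hsp70, read 688 and 1103 in labelled double knockout lung, against 852 and 1348 in labelled wild type lung. Both ratios lay close together, at -0.31 and -0.29, though the first probe set passed on 1 array only. Hspa4, a constitutive Hsp110-type protein despite its name, read 1240 and 732 in labelled double knockout lung, against 1837 and 838 in labelled wild type lung (-0.57 and -0.19), the second passing on 1 array only. Its relative Hspa4l had -0.21 and -0.18 on MOE430A, but 0.63, 0.05 and -0.60 on MOE430B, so its probe sets gave no single direction.

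The Hsp70 family, grouped by symbol and so with Hspa4 and Hspa4l counted in it, read lower on MOE430A. There 12 of 14 passing probe sets were below 0, with a median of -0.21 (range -0.64 to 0.40). On MOE430B, where the passing genes were in part others, 7 of 11 were above 0, with a median of 0.25. The 3 at least 1.5-fold higher there were of Hspa12a and Hspa4l. Hspa8, the constitutive cytosolic Hsp70 known as Hsc70, read 4793, 19532 and 17406 in labelled double knockout lung, against 6351, 22670 and 13199 in labelled wild type lung. Its first and second probe sets were lower (-0.41 and -0.21) and the other higher (0.40), and all 3 are of kinds that may bind related transcripts. Hspa9, the mitochondrial Hsp70 called mortalin, read 1132, 3151 and 878 in labelled double knockout lung, against 1558, 4900 and 911 in labelled wild type lung. The second of these, 1.56-fold lower, was the lowest ratio of the family on MOE430A (-0.64), while a probe set on MOE430B read 8950 against 7542 (0.25). Hspa14, an Hsp70 that works at the ribosome, was 1.52-fold lower (685 against 1042) by a probe set that passed on 1 array only, and Hspa2, an Hsp70 of male germ cells, had 0.21 (1332 against 1151).

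The heat-inducible pair Hspa1a and Hspa1b, whose transcripts appear within minutes of heat or injury, stayed under the filter on both arrays. Hspa1a read 140 in labelled double knockout lung and 439 in labelled wild type lung. The 3 probe sets of Hspa1b read 174, 281 and 513 in labelled double knockout lung, against 156, 290 and 389 in labelled wild type lung. The genes are near copies, so that signal of one cannot be told apart from that of the other. Their promoters differ at 3 of the 250 bases before the start site, and the stretch of 88 bases around their heat shock element is the same in both. It is printed here for Hspa1a from RefSeq promoters of GRCm38.p6, the assembly of C57BL/6J mice and not of the BALB/c strain studied, in lower case with the 8 bases matching GAANNTTC in capitals.
Hspa1a (chr17:34972213-34972300, strand minus): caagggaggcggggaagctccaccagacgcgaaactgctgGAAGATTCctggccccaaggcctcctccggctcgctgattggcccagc

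The endoplasmic reticulum holds its own set. Hspa5, the Hsp70 of that compartment known as BiP or GRP78, read 7958 and 3506 in labelled double knockout lung, against 10988 and 3962 in labelled wild type lung, on MOE430A. Its ratios there were -0.47 and -0.18, but a probe set on MOE430B, of the kind that may bind related transcripts, was 25619 against 20127 (0.35). Dnajc3, the J protein of this lumen called p58IPK, had 4 passing probe sets, with 795, 1162, 1711 and 1730 in labelled double knockout lung, against 969, 1221, 1938 and 2079 in labelled wild type lung. All 4 were lower by small amounts, from -0.29 to -0.07, and a further one lay under the floor on both arrays.

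Of the members with a promoter in RefSeq, Hspa5, Hsp90b1 and Dnajc3 held the endoplasmic reticulum stress element, searched as CCAAT, then 9 bases of any kind, then CCACG, the site through which the unfolded protein response is known to act. The search covered both strands of the 300 bases from 250 before to 50 after each start site. RefSeq had 85 such windows for 66 of the 80 members, and 3 of them (3.53%) held it, against 39 of all 32851 windows (0.119%). On MOE430A the 8 passing probe sets of these 3 genes were all below 0, with a median of -0.22, where 47 of 67 probe sets of members without the element were below 0, with a median of -0.13. On MOE430B the single passing probe set, that of Hspa5, was above 0 (0.35). Stretches before the start site are given with the matching bases in capitals.
Hspa5 (chr2:34771985-34772083, strand plus): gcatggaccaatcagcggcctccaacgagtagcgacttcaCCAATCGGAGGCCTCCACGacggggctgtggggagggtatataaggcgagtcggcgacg
Hsp90b1 (chr10:86705493-86705694, strand minus): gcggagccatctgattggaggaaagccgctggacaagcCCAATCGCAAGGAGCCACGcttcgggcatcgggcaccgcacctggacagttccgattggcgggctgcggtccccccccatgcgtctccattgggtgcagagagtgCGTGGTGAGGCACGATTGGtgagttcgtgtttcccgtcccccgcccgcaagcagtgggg
Dnajc3 (chr14:118937787-118937885, strand plus): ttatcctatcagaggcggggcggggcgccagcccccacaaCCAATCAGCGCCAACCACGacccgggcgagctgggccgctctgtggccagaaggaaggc

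The stretch of Hsp90b1 holds 2 matches, the second on the opposite strand. The match of Hspa5 ends 47 bases before the start site and that of Dnajc3 ends 87 bases before it. Other J proteins of the compartment did not read alike. Dnajb9 (ERdj4), an unfolded protein response gene, was at -0.08 (2667 against 2825), Dnajb11 (ERdj3) at 0.25 (1601 against 1351), and Dnajc10 (ERdj5), a reductase, at 0.37, -0.19 and 0.32. Hspa13, an Hsp70-like protein of microsomes, had 4 passing probe sets on MOE430B between -0.22 and 0.26.

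**Figure D3:**
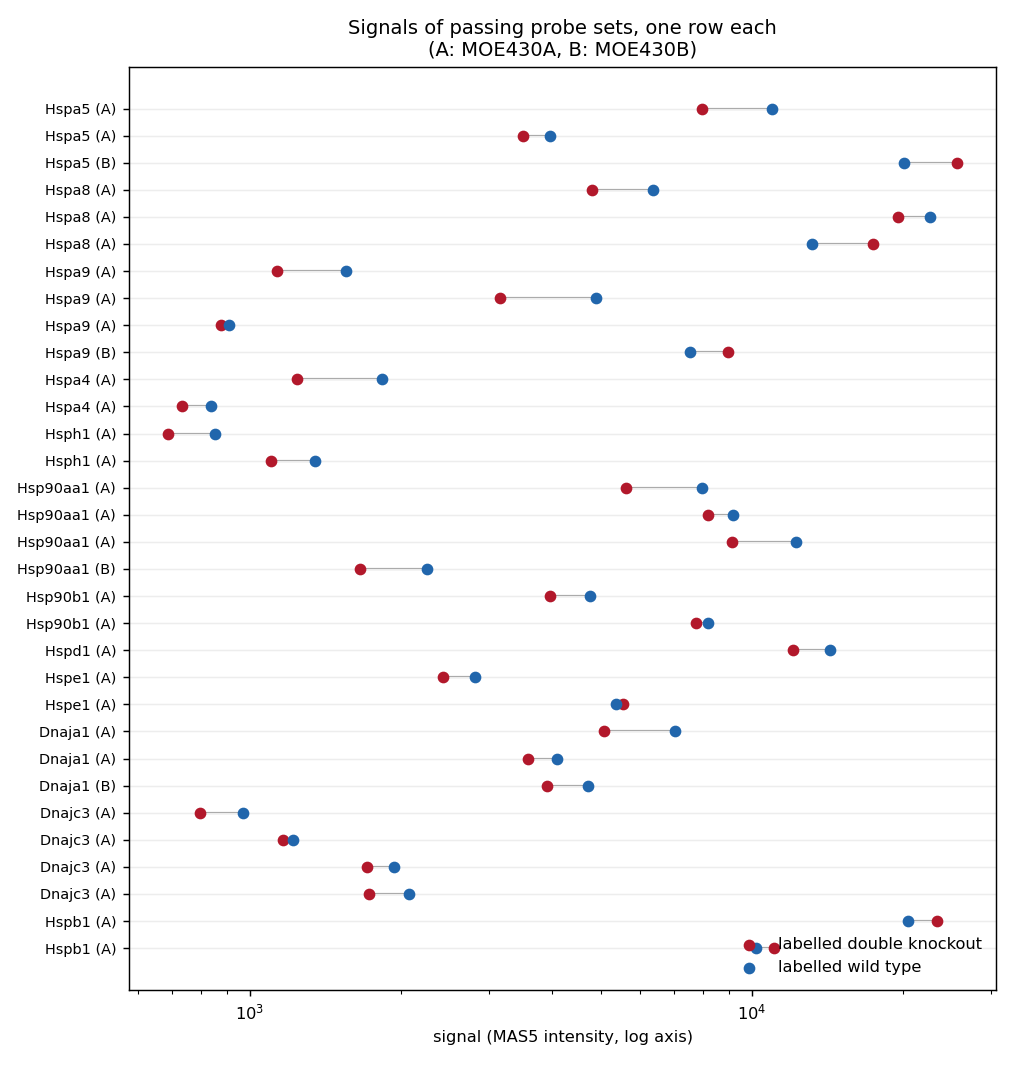
Signal on a log axis (horizontal) of every passing probe set of 12 well known chaperone genes, 1 row per probe set, in labelled double knockout lung (red) and labelled wild type lung (blue). Red lies left of blue for every row of Hsp90aa1, Hsp90b1, Hsph1, Hspa4, Dnaja1 and Dnajc3, and right of it for both rows of Hspb1.

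In the mitochondrial chaperonin, Hspd1 (Hsp60), the ring of this folding chamber, was 12051 in labelled double knockout lung and 14284 in labelled wild type lung (-0.25). Hspe1 (Hsp10), its lid, was 2425 and 5545 in labelled double knockout lung, against 2807 and 5371 in labelled wild type lung (-0.21 and 0.05). These genes lie head to head and share a promoter. Below, the stretch is read in the direction of Hspe1, and its capitals are 2 overlapping matches, 1 per strand, to a longer heat shock element, GAANNTTC followed by 2 bases of any kind and GAA. It contains the shorter element.
Hspe1 (chr1:55088019-55088116, strand plus): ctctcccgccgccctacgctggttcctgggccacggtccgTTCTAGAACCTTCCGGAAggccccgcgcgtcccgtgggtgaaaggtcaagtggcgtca

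The longer element was in 198 of 32851 windows (0.603%) and in 6 of the 85 member windows (7.06%), those of Dnajb6, Hspd1, Hspe1 and Hsph1. The shorter GAANNTTC was in 7.86% of all windows and 21.2% of member windows, and 16 members held it. On MOE430A, passing probe sets of members with the shorter element had a median log2 ratio of -0.17 over 20 probe sets, and those of members without it -0.16 over 55. For the longer element, 6 of 7 probe sets were below 0 with a median of -0.23, against -0.14 over 68 without it. On MOE430B members with the shorter element had only 4 passing probe sets, with a median of 0.34, against -0.02 over 22 without it.

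The cytosolic chaperonin CCT, a ring of 8 related subunits whose clients include actin and tubulin, lay close to equality. On MOE430A 14 of its 19 passing probe sets were below 0, but the median was -0.08 and none passed 1.5-fold. Cct5, read by 1 probe set, had signals of 11083 in labelled double knockout lung and 12147 in labelled wild type lung (-0.13). Cct2 had 0.11, -0.08 and -0.13, Cct3 had -0.23 to 0.00 over 5 passing probe sets, Cct6a had -0.01 and -0.37, Cct7 had -0.06 and -0.34, and Cct8 had -0.13. Cct4 spread the most, from -0.58 to 0.17 over 5 passing probe sets, and was 1.65-fold lower by a probe set on MOE430B that passed on 1 array only. The testis subunit Cct6b did not pass, and Cct8l1, a CCT8-like gene, had 0.33 on MOE430B. Tcp1, the subunit whose symbol falls outside the rule, was at -0.08 (11489 against 12169).

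Small heat shock proteins had a median of -0.08 on MOE430A over 8 passing probe sets, with 5 below 0. Hspb1 (Hsp25), the inducible small heat shock protein that caps actin, read 23376 and 11085 in labelled double knockout lung, against 20458 and 10205 in labelled wild type lung, slightly higher by both probe sets (0.19 and 0.12). Hspb6, a small heat shock protein of heart and smooth muscle, was 11444 against 8951 on MOE430B (0.35). Hspb2, of heart and skeletal muscle, was 3573 in labelled double knockout lung and 4460 in labelled wild type lung (-0.32), and Hspb3, also of muscle, was 1529 against 1543 (-0.01). Hspb8, which works with Bag3 to clear damaged protein, had 0.14, -0.15 and -0.46, and Hspb11, a protein of cilia transport, had -0.16. Other muscle genes were read beside these. On MOE430A the cardiac list summed to 536584 in labelled double knockout lung and 506252 in labelled wild type lung (14 of 23 passing genes higher), the smooth muscle list to 72853 against 50023 (8 of 10 higher) and the skeletal list to 86888 against 80179. Most of the skeletal sum came from Ckm (42727 against 35417) and Tnni1 (31995 against 26467), while 6 of its 9 passing genes were lower. The skeletal genes Actn3, Cacna1s, Myh1, Myh4 and Ryr1 were under the floor on both MOE430A arrays. On MOE430B, Myh4 (1100 against 720) and Ryr1 (925 against 673) read higher, each by a probe set that passed on 1 array only. The part of muscle RNA in the values of Hspb genes was not tested. In whole lung RNA, fewer cells of a type and less RNA per cell cannot be told apart.

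Hspbp1, which strips nucleotide from Hsp70, was 1.52-fold higher (1607 in labelled double knockout lung, 1054 in labelled wild type lung). Hspbap1, named for binding Hspb1, read 3449 against 4765 on MOE430B (-0.47), while its other probe sets did not pass.

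Among J proteins of class A, the general partners of cytosolic Hsp70, 6 of 8 passing probe sets were below 0 on MOE430A, with a median of -0.26. Dnaja1 was lower by all 3 probe sets, with 5072 and 3577 in labelled double knockout lung, against 7016 and 4082 in labelled wild type lung on MOE430A, and 3908 against 4711 on MOE430B (-0.47, -0.19 and -0.27). Dnaja2 was lower by 3 of 4 passing probe sets (-0.03, -0.33 and -0.46), and its remaining one, which passed on 1 array only, was 1.92-fold higher. Dnaja4 was lower by all 3 probe sets, at 845, 503 and 278 in labelled double knockout lung, against 1086, 919 and 600 in labelled wild type lung. Its second was 1.83-fold lower, though it passed on 1 array only, and its last did not pass. Dnaja3 (Tid1), the class A protein of mitochondria, went the other way with 0.03 and 0.55. RefSeq has 2 start sites for Dnaja4, and the promoter of the downstream one holds 2 heat shock elements, in capitals.
Dnaja4 (chr9:54699429-54699554, strand plus): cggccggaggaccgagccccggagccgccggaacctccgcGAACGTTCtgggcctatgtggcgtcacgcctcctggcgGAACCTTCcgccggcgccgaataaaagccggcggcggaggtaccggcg

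Class B J proteins were spread around 0, with 8 of 14 below and a median of -0.06 on MOE430A. Dnajb1 (Hsp40), the heat-inducible partner of Hsp70, gave opposite signs by its probe sets, at 2078 and 2116 in labelled double knockout lung, against 1935 and 2874 in labelled wild type lung (0.10 and -0.44). Dnajb6, which keeps polyglutamine proteins from clumping, had -0.03 and -0.23. Dnajb4 had 0.10 and -0.28 on MOE430A and 0.16 on MOE430B. Dnajb2, found mainly in neurons, had -0.50, and Dnajb5 had -0.36 and 0.32. Of the members past 1.5-fold, Dnajb12, a J protein of the endoplasmic reticulum membrane, was 1.56-fold lower, and Dnajb13, of cilia and sperm tails, and Dnajb8, of testis, were 1.53-fold and 1.52-fold higher. Each of those 3 passed on 1 array only. On MOE430B a probe set of Dnajb14, the relative of Dnajb12, read 188 in labelled double knockout lung and 995 in labelled wild type lung, at least 3.56-fold lower because the first lies under the floor of 279.1. A brighter probe set of the same gene showed no such difference (2149 against 2296, -0.10).

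Class C holds J proteins with dedicated sites of work, and on MOE430A 18 of its 28 passing probe sets were below 0, with a median of -0.12, while on MOE430B 8 of 14 were above 0, with a median of 0.16. Dnajc9, a histone chaperone of dividing cells, was 1.57-fold lower (1835 in labelled double knockout lung, 2880 in labelled wild type lung). Dnajc2, the ribosome-bound partner of Hspa14, had -0.88 and -0.19, the first passing on 1 array only. Dnajc14 had 0.26 and -0.70, and Dnajc18 0.46 and -0.60, both of Dnajc18 passing on 1 array only, so each gene gave both signs on the same arrays. On MOE430B Dnajc18 had 0.18. Dnajc30, a mitochondrial protein, was the highest of the class on MOE430A at 0.48 (1920 against 1379). Dnajc8, found with splicing factors, was -0.01 on MOE430A (7959 against 8006) and -0.55 on MOE430B (6341 against 9300). Dnajc5, the cysteine string protein of secretory vesicles, ranged from -0.32 to 0.30 over 4 passing probe sets. Dnajc11, of the mitochondrial inner membrane complex, had 0.12 and -0.14 on MOE430A, and on MOE430B 0.33 and 0.94, the last by a probe set that passed on 1 array only. Dnajc16 was 1.97-fold lower on MOE430B, again passing on 1 array only (467 against 919). Dnajc17 read 21543 against 17192 on MOE430B (0.33), though both of its MOE430A probe sets were under the floor on both arrays. Dnajc13, of endosomes, was lower on both designs (-0.25 and -0.19) and Dnajc7, which binds both Hsp70 and Hsp90, was at -0.05. The others lay nearer 0 than 1.5-fold: Dnajc4 (0.02), Dnajc12 (-0.21), Dnajc15 (-0.10) and Dnajc28 (-0.24) on MOE430A, and Dnajc1 (-0.48) and Dnajc25 (0.13) on MOE430B.

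**Figure D4:**
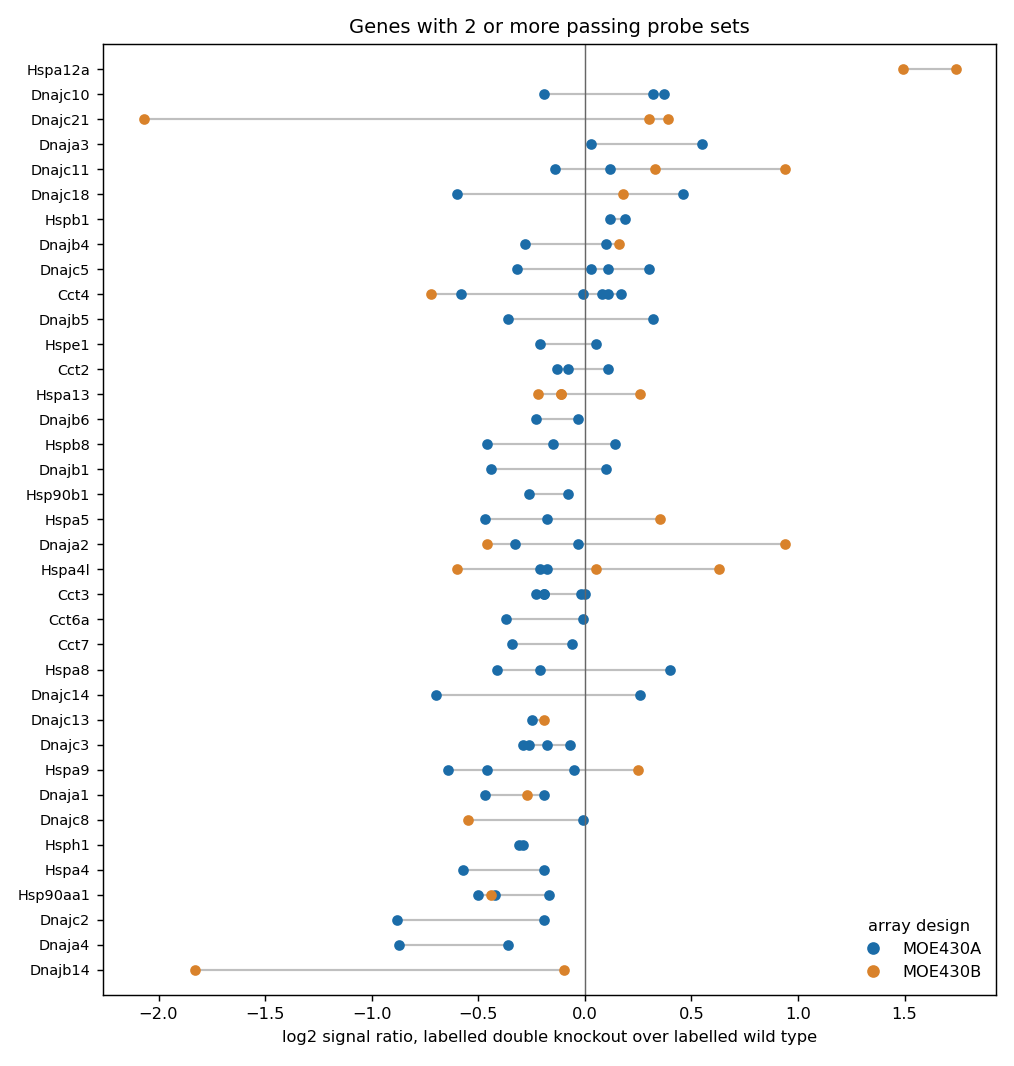
Log2 signal ratio of labelled double knockout over labelled wild type (horizontal) for every passing probe set of the 37 genes with 2 or more, ordered by median, with the array design in colour. Both passing probe sets of Hspa12a lie at 1.49 or above, Dnajc21 spans -2.07 to 0.39, and 14 genes lie wholly below 0.

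Over both designs 37 genes had 2 or more passing probe sets. All were below 0 for 14 genes (37.8%, against 26.0% of 5052 genes) and all above 0 for 3 (8.11%, against 18.7%). The probe sets are those already counted by design, so these shares are not a separate reading of the tilt on MOE430A. The 14 were Cct6a, Cct7, Dnaja1, Dnaja4, Dnajb6, Dnajb14, Dnajc2, Dnajc3, Dnajc8, Dnajc13, Hsp90aa1, Hsp90b1, Hspa4 and Hsph1. The value nearest 0 was between -0.19 and -0.01 for 12 of them, -0.36 for Dnaja4 and -0.29 for Hsph1. The other passing probe set of Dnaja4 and that of Hsph1 each passed on 1 array only. The 0.245 SD of a ratio came from shared probe sets of other genes, so it does not measure the noise of these values. The 3 were Dnaja3, Hspa12a and Hspb1.

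The largest upward ratio of any passing member belonged to Hspa12a, a distant Hsp70 relative known mainly from brain. On MOE430B its probe sets read 4278 and 1070 in labelled double knockout lung, against 1283 and 382 in labelled wild type lung, 3.33-fold and 2.80-fold higher. The second passed on 1 array only and its log2 ratio of 1.49 was 0.52 after local regression, and 2 other probe sets of the gene were too dim to pass (337 against 368, and 54.2 against 101). Its paralogue Hspa12b, of endothelium, read 583 against 192 on MOE430A and did not pass. On MOE430B, 9.74% of all passing probe sets were at least 2-fold higher.

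The other members past 2-fold, besides Dnajb14, were J proteins of class C on the same design. Dnajc6 (auxilin), which lets Hsp70 strip clathrin from vesicles, was 2.08-fold lower (1139 in labelled double knockout lung, 2366 in labelled wild type lung), and its 3 other probe sets did not pass. Dnajc5g, a testis relative of the cysteine string protein, was 2.31-fold higher (1717 against 742), passing on 1 array only. Dnajc21, a factor of ribosome assembly, was at least 4.20-fold lower by 1 probe set (114 against 1172). Its other passing probe sets were higher, at 1902 and 1863 in labelled double knockout lung, against 1449 and 1516 in labelled wild type lung. The probe set with the large ratio is of a kind that may bind related transcripts.

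Genes that work with chaperones were spread evenly around 0 on MOE430A. Of 41 co-chaperones and heat shock factors that passed on MOE430A, each by its brightest probe set, 21 were lower and 20 higher, with a median of -0.01, none at least 1.5-fold lower and 1 at least 1.5-fold higher. St13, the Hsp70 co-chaperone Hip, had -0.41 and Bag3, the nucleotide exchange factor that works with Hspb8, was 864 in labelled double knockout lung and 1231 in labelled wild type lung (-0.51). On MOE430B the same list had 10 of 15 lower with a median of -0.17. Ahsa1, an activator of Hsp90, and Cdc37l1, an Hsp90 co-chaperone, were the highest bright members there (0.65 and 0.66), and Fnip1 the lowest (-0.42). On MOE430A the brightest probe sets of Ahsa1 and Cdc37l1 gave 0.09 and 0.25. Dimmer members on MOE430B, by their brightest probe sets, ran from -1.75 (Fkbp4) to 0.77 (Clpx). Of genes of endoplasmic reticulum folding and the unfolded protein response, 22 of 43 were lower on MOE430A (median -0.01) and 9 of 15 on MOE430B (median -0.17). Hyou1, the Hsp110 of that compartment, had 0.59 by its brightest probe set and -0.09 by another, while Fkbp7, a proline isomerase, had -0.97. Xbp1, a factor that drives the response, was higher by every passing probe set, with 0.15 by its brightest and 0.26, 0.41 and 0.90 by others. Atf6, of the same list, had 0.28 on MOE430A but -0.80 and -0.75 on MOE430B, the last passing on 1 array only. Of immediate early and other stress genes, 16 of 25 were lower on MOE430A, with a median of -0.07. Txnrd1, thioredoxin reductase, was the lowest bright one (-0.67) and Mt1, a metallothionein, the highest (0.46).

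**Figure D5:**
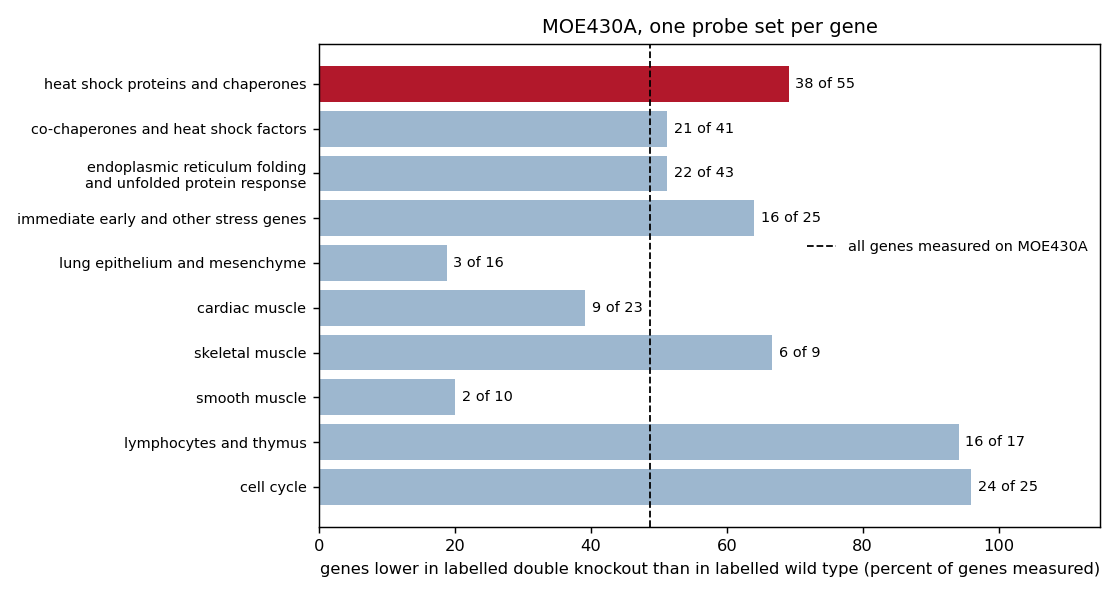
Percent of measured genes on MOE430A (horizontal) that read lower in labelled double knockout lung than in labelled wild type lung, 1 probe set per gene, for the chaperones (red) and for other gene lists with at least 8 measured genes (blue), with the counts at the bars. The dashed line is the 48.7% of all genes measured; chaperones stand at 38 of 55, co-chaperones at 21 of 41 and cell cycle genes at 24 of 25.

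Genes of dividing cells and of lymphocytes were lower in the same arrays. On MOE430A 24 of 25 measured cell cycle genes were lower, 12 of them at least 1.5-fold, and the list summed to 66060 in labelled double knockout lung and 98362 in labelled wild type lung. Lymphocyte and thymus genes were lower for 16 of 17, summing to 11721 against 47240, and Cd4 and Rag2 were under the floor on both arrays. Of the 17, all but Zap70 (-0.17) and Foxn1 (-0.02) passed on 1 array only and so had to differ between the genotypes. On MOE430B 3 of 5 cell cycle genes and 7 of 8 lymphocyte and thymus genes were lower, and these lists summed to 17815 against 27206 and 13342 against 28517. The lymphocyte and thymus genes that passed on both arrays there were Ikzf1 (-3.00), Bcl11b (-2.03), Zap70 (-0.63), Cd8a (-0.30) and Ccl25 (0.57). Lung epithelium and mesenchyme genes were higher for 13 of 16 on MOE430A, summing to 266075 against 193175. Other lists held little, with 2 red cell genes, 1 motile cilia gene and 1 germ cell gene passing on MOE430A. The part of dividing cells and lymphocytes in the lower chaperone signals was not tested, and the labels give no cell counts.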

How the data were processed

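Per the submitters' processing notes the authors made the signals with MAS5; no version or settings are named there. What the authors deposited are linear intensities, 1 per probe set, and every array has a 2% trimmed mean of 1500, so each had been scaled on its own. Such scaling assumes equal total signal and leaves dim signals noisy. The 64 controls of each design were not used, and signals of the array labelled double knockout were divided by 1.004 (MOE430A) or 1.008 (MOE430B) to bring the median ratio of passing probe sets to 1. The printed signals are after this step. Signals under the 25th percentile (284.5 and 279.1) were set to it before log2 ratios were taken. Such ratios are bounds.

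Genes were named through GEO's platform annotation. All 80 symbols matched the RefSeq gene table of GRCm38.p6 by Entrez identifier. Probe sets ending in _s_at, _x_at or _a_at may bind related transcripts. Members, lists and rules were chosen with earlier results of these data known, and 1 gene of the Hspb family is not reported here. Named genes were the 2 highest and 2 lowest bright genes of each family, all past 2-fold and the best known members. Further members past 1.5-fold and others set beside them were chosen after their values were seen. Promoters are RefSeq's. With 1 array per genotype and design no test was run. The ratio step was checked on simulated arrays with large changes planted in bright probe sets. That check does not cover small ratios or dim probe sets. Work used python 3.11.15, numpy 2.4.6, pandas 2.3.3 and statsmodels 0.14.6.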

Additional observations from a re-analysis of the deposited data

How the results depend on the processing

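No paired analysis was possible because each genotype has 1 array per design and the labels carry no replicate numbers, and for the same reason no replicate was left out. Over the 10 alternatives the median of all chaperones ran from -0.19 to -0.06 on MOE430A (reported as -0.17) and from -0.06 to 0.15 on MOE430B (reported as 0.09), where it took both signs. On MOE430A 57.7% of members were below 0 without a filter (38.7% of all probe sets) and 69.1% to 75.9% under the other 9. Small heat shock proteins had medians of -0.08 to 0.12 there, and the medians of Hsp70, DnaJ A, DnaJ B and DnaJ C took both signs over the alternatives on MOE430B.

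Counts of members past a fold moved most, and causes were not tested. With local regression, 5 members were at least 2-fold lower on MOE430B. With the floor at the median, 1 was 1.5-fold higher and 3 lower on MOE430A, and on MOE430B 2 were 1.5-fold and 1 was 2-fold lower. Without a filter, 6 were 1.5-fold higher on MOE430A, 2 were 2-fold higher and 2 were 2-fold lower, and the Hsp70 median on MOE430B was 0.00. With the filter at the upper quartile, 0 were 1.5-fold higher and 3 lower on MOE430A, while on MOE430B 2 were 1.5-fold higher, 1 was lower, 1 was 2-fold higher, 1 was 2-fold lower, and DnaJ C had -0.15. With a filter on mean signal, 2 were 1.5-fold and 1 was 2-fold lower on MOE430B. Without probe sets that may bind related transcripts, the medians were -0.46 (MOE430A) and -0.03 (MOE430B) for Hsp70 and 0.94 for DnaJ A on MOE430B. With 1 probe set per gene, 4 were 1.5-fold lower on MOE430A, where Hsp70 had -0.47, and on MOE430B 3 were 1.5-fold higher, 3 lower and 1 was 2-fold lower. The 6 of 90 values of named genes that moved by 0.245 or more each passed on 1 array only. Hspa12a (1.49) went down to 0.32, Dnajc21 (-2.07) ran from -3.36 to -0.45, Dnajb14 (-1.83) from -2.40 to -0.21, Cct4 (-0.72) from -1.27 to -0.12, Dnaja2 (0.94) went down to 0.62 and Hspb8 (-0.46) came nearer 0, at -0.20. Of the others, 3 values next to 0 took both signs (Cct3 at -0.02, Cct4 and Cct6a at -0.01). Signal near the floor limits the dim members: those that passed on 1 array only gave most of the ratios past 1.5-fold.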
